A study of Mus musculus with 13 samples.

Results

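The urea cycle and the genes of periportal nitrogen disposal were followed in the livers of WT and Nod2-/- mice given DMBA and a high fat diet. The set holds 10 genes, chosen by name from the liver count table of 53465 genes: Cps1, Otc, Ass1, Asl and Arg1 for the enzymes of the cycle, Slc25a15 for its transporter, Nags for the enzyme that makes its activator, and Gls2, Hal and Sds for enzymes that release ammonia from glutamine, histidine and serine. All 10 were found and all 10 passed the filter on low counts. The mice were BALB/c males labelled as 30 weeks old, 6 WT and 7 Nod2-/-, with 1 liver library per mouse. By the paper, both genotypes received the carcinogen once as pups and the diet from days later. The time on the diet that the paper gives for these livers is longer than the labelled age. Nod2-/- mice carry a germline deletion of Nod2, a receptor for bacterial peptidoglycan fragments, in every cell. Both genotypes carry the label cancer as disease state. The paper reported liver tumors in a larger share of Nod2-/- than of WT males so treated, and more weight gain. It also reported that these Nod2-/- males lost weight in the later weeks, which it held to be likely due to tumors. Tumor load and body weight therefore cannot be told apart from the deletion here. WT founders came from a vendor, and the paper states that littermates of heterozygous pairs were not used. Differences between the breeding lines, those in microbiota included, therefore cannot be told apart from the deletion.

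The urea cycle turns ammonia, which is toxic, into urea. It starts in the mitochondria of hepatocytes, where carbamoyl phosphate synthetase 1 and ornithine transcarbamylase act, and ends in the cytosol with argininosuccinate synthetase, argininosuccinate lyase and arginase 1. In the liver lobule the cycle belongs to the periportal hepatocytes, near the incoming portal blood, while the pericentral hepatocytes capture remaining ammonia as glutamine. Because RNA came from liver tissue and not from sorted cells, fewer hepatocytes of a zone and less RNA per hepatocyte cannot be told apart. The paper states that tumors were sampled apart where this could be done. How much tumor tissue each sequenced sample held is not given in the sources used here.

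The livers held between 13824780 and 20579984 counts. All 14 hepatocyte markers were detected, with a summed level of 104300 to 146900 CPM (counts relative to library size) in WT and 115500 to 239700 CPM in Nod2-/- livers. The 8 tumor and progenitor markers, none of them at 0 throughout, summed to 40.6 to 537 CPM in WT and 174 to 786 CPM in Nod2-/- livers, and the WT maximum, in replicate 3, lay far above the WT median of 93.0 CPM. The 8 neutrophil markers summed to 4.17 to 8.99 CPM in WT and to 5.74 to 938 CPM in Nod2-/- livers, with the highest value in Nod2-/- replicate 7. The 7 lung epithelium markers summed to 13.7 to 197 CPM in WT, highest in replicate 4, and to 2.81 to 32.7 CPM in Nod2-/- livers. The part of these markers in the results was not tested beyond the values without each mouse. Nod2 itself had 0 to 6 counts per liver in both genotypes, so its counts did not check the genotype labels.

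None of the 10 genes passed a 5% false discovery rate (FDR) in edgeR's quasi-likelihood test across all 13545 genes tested, a threshold passed by 1.16% of all genes (0.65% higher and 0.509% lower in Nod2-/- livers). At an unadjusted p under 0.05, 3 of the 10 differed, beside 23.1% of all genes. Sds was higher, beside 12.9% of all genes higher at that level. Cps1 and Otc were lower, beside 10.2% of all genes. The median log2 fold change of the 10 genes was 0.03, with 6 above 0 and 4 below, and that of all genes was 0.02. The normalized counts of the genotypes overlapped in all 10 genes, whereas 1.44% of all genes did not overlap. DESeq2, the tool the paper used for differential expression and run here as an alternative, placed Cps1, Otc and Sds past 5% FDR. It called 8.41% of the genes it tested.

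**Figure D1:**
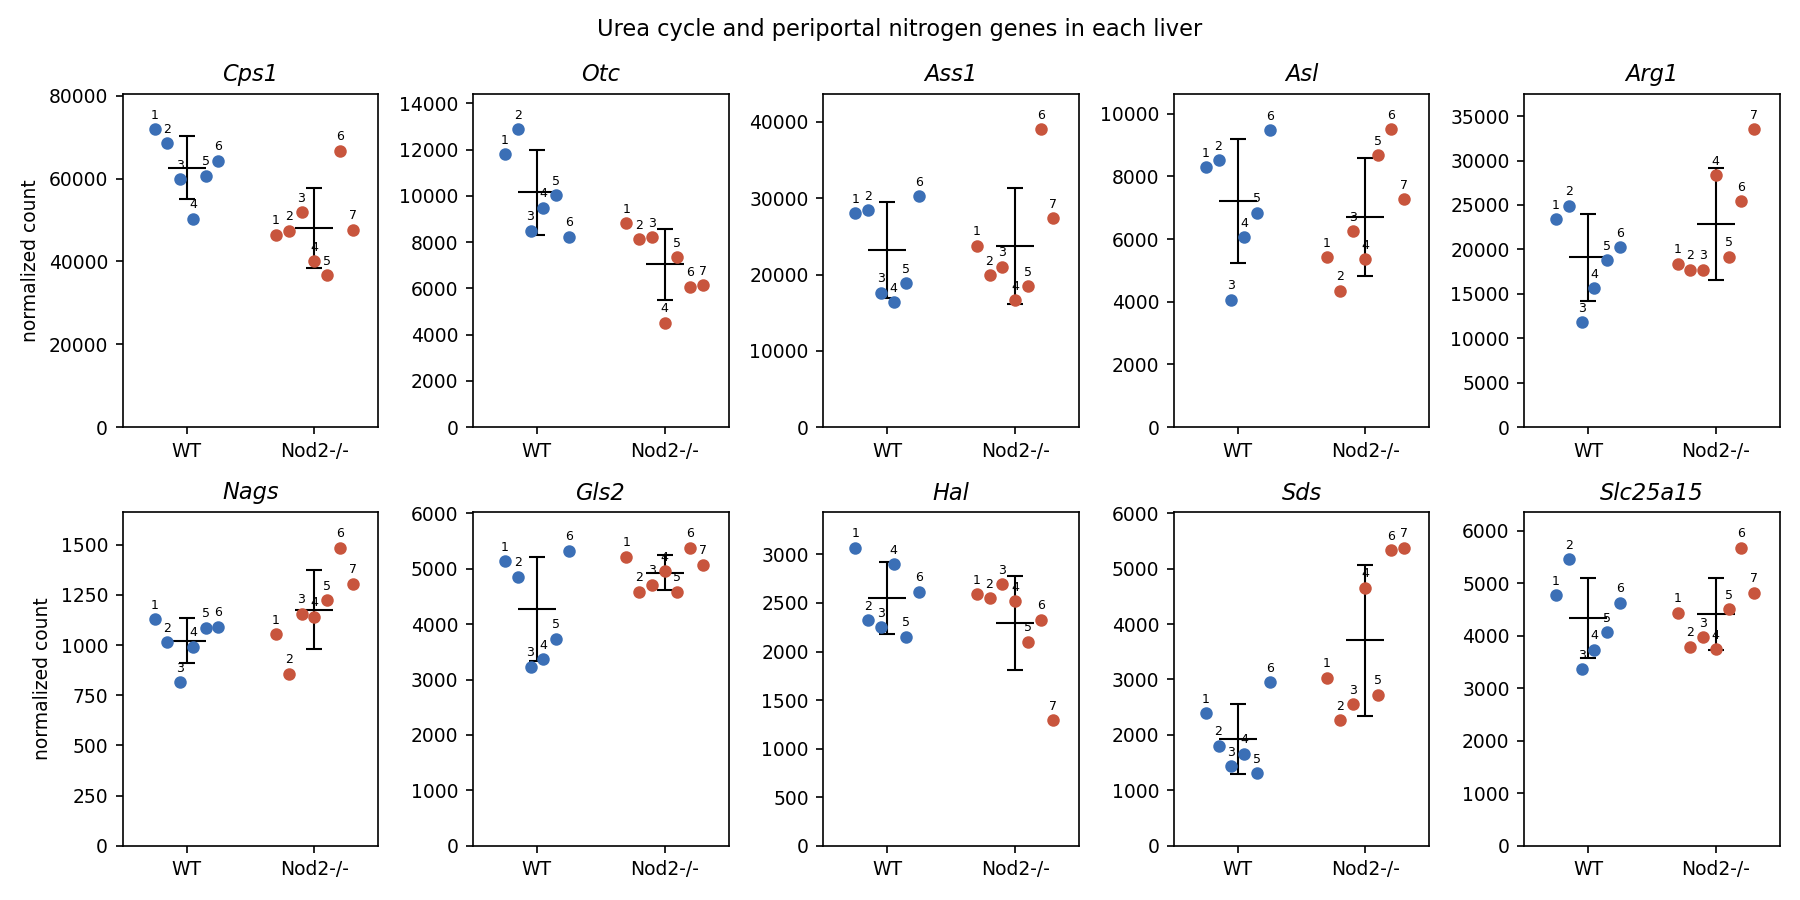
Normalized counts (linear axis from 0, counts scaled to the mean library size) of the 10 genes in each liver, with the replicate number beside each point. The black bar and whiskers are the mean ± SD of 6 WT and 7 Nod2-/- livers. Only Nod2-/- replicate 1 exceeded the lowest WT livers for Otc, and all 7 Nod2-/- livers were above the WT median for Sds.

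Cps1, the mitochondrial enzyme that commits ammonia to the cycle, lies on chromosome 1 (GRCm38, 67123026 to 67231259, plus strand). In WT livers its normalized count was 50360 at the lowest, 62560 at the median and 71920 at the highest. In Nod2-/- livers the values were 36750, 47460 and 66740. In 5 of 7 Nod2-/- livers Cps1 was below every WT liver, and replicate 6 was the only one above the WT median. The mean was 62630 ± 7549 (SD, n = 6) in WT and 48150 ± 9648 (SD, n = 7) in Nod2-/- livers, a log2 difference of -0.38 ± 0.15 (SE) with a 95% interval of -0.70 to -0.06. The unadjusted edgeR p was 0.022 and the adjusted p 0.15. The exact two-sided permutation test over the mice gave p = 0.016.

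Otc, which joins carbamoyl phosphate to ornithine, is an X-linked gene (chromosome X, 10252305 to 10321024, plus strand), present in 1 copy in these male mice. Its normalized counts in WT livers were 8243 at the lowest, 9762 at the median and 12880 at the highest. Nod2-/- livers gave 4521, 7344 and 8813. All 7 Nod2-/- livers were below the WT median and 6 of 7 were below every WT liver. The log2 difference was -0.53 ± 0.16 (SE), with a 95% interval of -0.87 to -0.19. The unadjusted edgeR p was 0.0050, the adjusted p 0.087, and the exact permutation p 0.0052. Without WT replicate 3, Otc passed 5% FDR (log2 difference -0.59, adjusted p 0.045), in a fit that called 8.49% of all genes. Without Nod2-/- replicate 4, the liver with the least Otc, the difference was -0.45 and the adjusted p 0.14.

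Sds, serine dehydratase, makes pyruvate and ammonia from serine and is a periportal enzyme of gluconeogenesis from amino acids (chromosome 5, 120476526 to 120483932, plus strand). Its normalized counts were 1307, 1734 and 2950 in WT livers (lowest, median, highest). In Nod2-/- livers they were 2269, 3034 and 5376. All 7 Nod2-/- livers were above the WT median and 4 were above every WT liver, with replicates 4, 6 and 7 between 4654 and 5376. The mean was 1.93 times the WT mean, and the log2 difference was 0.94 ± 0.25 (SE), with a 95% interval of 0.41 to 1.48. The unadjusted edgeR p was 0.0020, the adjusted p 0.067, and the exact permutation p 0.014. Leaving out single mice moved the adjusted p between 0.052 and 0.16, so no fit without a mouse placed Sds past 5% FDR, while DESeq2 gave an adjusted p of 0.0096. Sds overlaps Plbd2, a lysosomal hydrolase gene, and the antisense transcript Gm15690, and the strand setting of the counting is not given in the sources used here. Plbd2 had a log2 difference of -0.03 ± 0.13 (SE), and Gm15690 had at most 4 counts in any liver. These overlapping genes were named for their position.

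**Figure D2:**
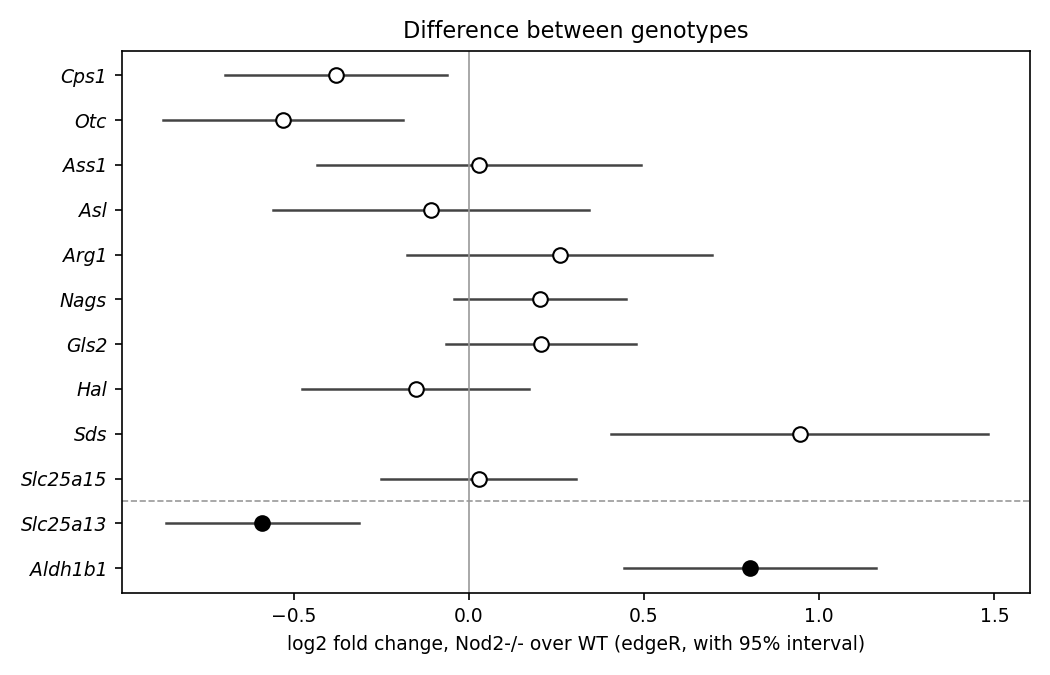
Log2 fold change of Nod2-/- over WT livers from edgeR (horizontal axis), with 95% intervals as lines, for the 10 genes above the dashed line and for Slc25a13 and Aldh1b1 below it. Open circles did not pass 5% FDR and filled circles did. The intervals of Cps1, Otc and Sds did not include 0.

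The later enzymes of the cycle gave smaller differences with wide intervals. Ass1, which condenses citrulline with aspartate, had 16360 to 30260 normalized counts in WT and 16640 to 39030 in Nod2-/- livers. Its log2 difference was 0.03, with a 95% interval of -0.43 to 0.49. Asl, which splits argininosuccinate into arginine and fumarate, ranged from 4070 to 9482 in WT and from 4357 to 9507 in Nod2-/- livers, with a log2 difference of -0.11 and an interval of -0.56 to 0.34. The fits that left out 1 mouse gave Asl differences from -0.24, without WT replicate 3, to -0.014, without WT replicate 6. Arg1, which releases urea from arginine, ranged from 11800 to 24920 in WT and from 17700 to 33520 in Nod2-/- livers. Its log2 difference was 0.26 (-0.18 to 0.69), and 3 Nod2-/- livers, replicates 4, 6 and 7, were above every WT liver. Without WT replicate 3 or without Nod2-/- replicate 7 the difference of Arg1 was 0.14. The intervals do not exclude changes of the size seen in Cps1 for these 3 enzymes in at least 1 direction.

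Ass1 has a near copy elsewhere in the genome. The processed pseudogene Gm5424 on chromosome 10 (62071123 to 62072362) matched the Ass1 coding sequence at 1230 of 1236 bases (99.5%) in the GENCODE M21 transcripts. Of the 1654 windows of 43 bases (the read length) in the Ass1 transcript, 953 (57.6%) occur unchanged in Gm5424, so reads from either locus could be counted to the other. A stretch of the coding sequence, bases 384 to 443 counted from the start codon, is shown to make the likeness visible, with the differing bases in capitals.
Ass1: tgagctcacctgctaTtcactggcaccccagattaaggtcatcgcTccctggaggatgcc
Gm5424: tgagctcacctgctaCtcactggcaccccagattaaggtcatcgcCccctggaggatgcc
Gm5424 had 1653 to 4047 counts per liver, and over the 13 mice it was the tested gene whose level was most like that of Ass1 (Pearson r = 0.933, Spearman rho = 0.973, given as a description). Summing the counts of both loci, an alternative added after the data were seen, left the log2 difference at 0.02. Of the other 9 genes, Hal shared 1.1% of its windows with transcripts of other genes and the rest shared none.

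Slc25a15, the ornithine carrier of the inner mitochondrial membrane, had normalized counts of 3359 to 5458 in WT and 3739 to 5678 in Nod2-/- livers and a log2 difference of 0.03 (95% interval -0.25 to 0.31). It lies on chromosome 8, as Nod2 does, 66.3 Mb away. Nags makes N-acetylglutamate, without which carbamoyl phosphate synthetase 1 is inactive. Its normalized counts were 816 to 1129 in WT and 858 to 1485 in Nod2-/- livers. In 5 of 7 Nod2-/- livers Nags was above every WT liver, yet the log2 difference of 0.20 had a 95% interval of -0.04 to 0.45 and an adjusted p of 0.30. Without WT replicate 3 it was 0.13. Nags overlaps the transcript Gm11586, named for its position, which had at most 31 counts.

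Gls2, the liver-type glutaminase, supplies ammonia to the cycle from glutamine (chromosome 10, 128194457 to 128210004, plus strand). Its normalized counts were 3235, 4296 and 5326 in WT livers (lowest, median, highest) and 4587, 4959 and 5380 in Nod2-/- livers. All 7 Nod2-/- livers were above the WT median. The coefficient of variation was 21.9% in WT and 6.35% in Nod2-/- livers, the smallest of the 10 genes in Nod2-/- livers, and this difference in spread was not tested. The log2 difference was 0.21 (95% interval -0.07 to 0.48), and 0.12 without WT replicate 3. Gls2 overlaps Spryd4, named for its position, whose log2 difference was 0.01. Hal, histidine ammonia-lyase, ranged from 2153 to 3069 in WT and from 1291 to 2694 in Nod2-/- livers, with a log2 difference of -0.15 (-0.48 to 0.17). Its lowest value was in Nod2-/- replicate 7, and without that liver the difference was -0.05.

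Scaling the libraries to 14 hepatocyte markers instead of all genes moved the median log2 fold change of all genes by -0.23. Of these markers 9 were higher and 5 lower in Nod2-/- livers, with a median of 0.27. At an unadjusted p under 0.05, 5 were higher (35.7%, beside 12.9% of all genes) and none lower (beside 10.2%). Whether the markers follow hepatocyte content was not tested. On that scale Ass1, Arg1, Nags, Gls2 and Slc25a15 had values below 0. Rescaling moves all genes by nearly the same amount. Subtracting the shift of all genes therefore returns values near those of the first scaling and does not test the signs. These values were 0.06 for Ass1, 0.23 for Arg1, 0.19 for Nags, 0.22 for Gls2 and 0.04 for Slc25a15. They were -0.36 for Cps1, -0.49 for Otc and 0.92 for Sds.

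Levels between genes were compared per kilobase of summed exon length (RPKM, counts scaled by exon length and library size), with n = 6 WT and n = 7 Nod2-/- livers. In WT livers the order of the means was Cps1 (680 ± 82.0 RPKM, SD), Ass1 (581 ± 157), Arg1 (518 ± 132), Otc (144 ± 26.3), Asl (90.0 ± 24.6), Gls2 (74.2 ± 16.3), Sds (68.5 ± 22.3), Slc25a15 (46.5 ± 8.18), Hal (27.7 ± 4.05) and Nags (21.7 ± 2.40). The ranges of Cps1, Ass1 and Arg1 overlapped, and Arg1 was above Otc in all 6 WT livers. In Nod2-/- livers Arg1 came first (620 ± 170 RPKM), before Ass1 (593 ± 190) and Cps1 (523 ± 105). Cps1 was above Ass1 in 5 of 6 WT and in 3 of 7 Nod2-/- livers. Sds stood in the seventh place in WT livers, and its level in Nod2-/- livers was 132 ± 48.5 RPKM. The order turned on the length used. Per kilobase of 1 coding transcript, an alternative added after the data were seen, Ass1 (827 ± 223, SD) and Arg1 (781 ± 199) stood above Cps1 (680 ± 82.0) in WT livers, and Nags (30.4 ± 3.35) above Hal (28.9 ± 4.22). In Nod2-/- livers Sds was ahead of Otc per summed exon length but not per coding transcript, where Otc had 183 ± 39.6 and Sds 173 ± 63.8. On both lengths the top 3 genes were Cps1, Ass1 and Arg1.

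**Figure D3:**
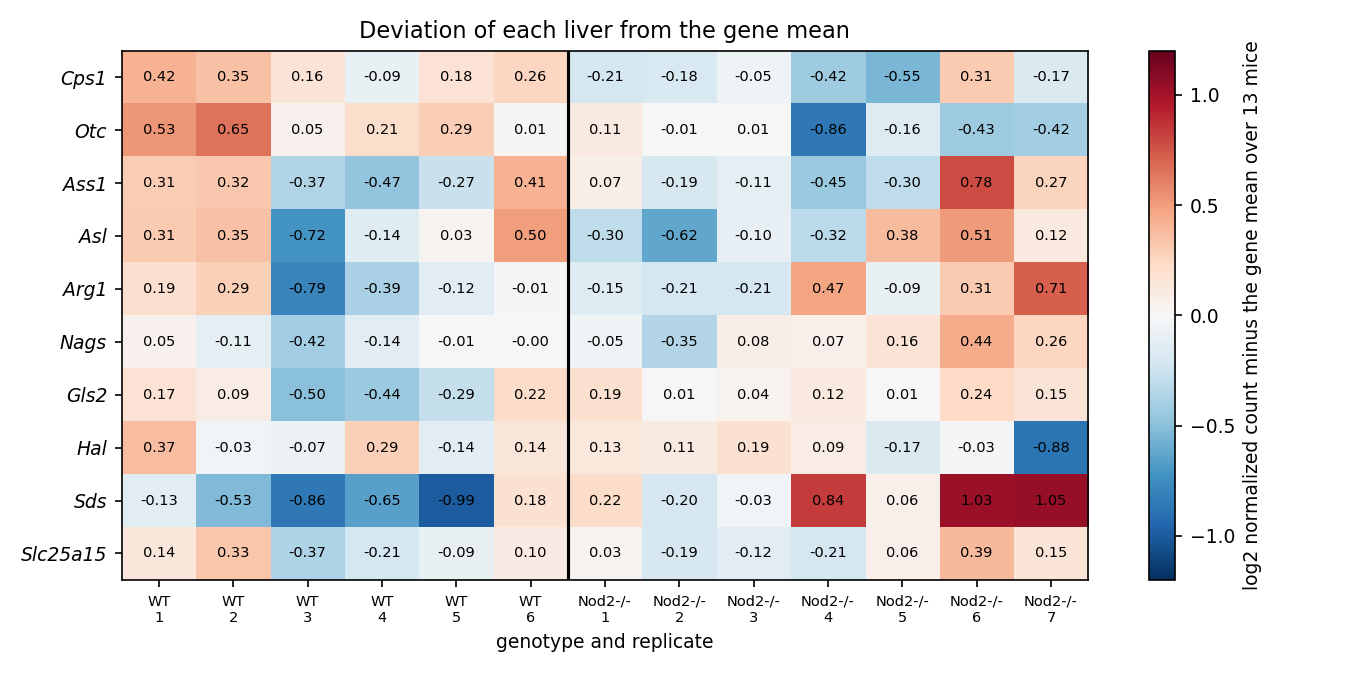
Log2 normalized count of each of the 10 genes minus the gene's mean over 13 mice, in each liver (columns, by genotype and replicate). Red cells are above and blue cells below the gene mean. WT replicates 3 and 4 and Nod2-/- replicate 2 are blue in 8 of 10 genes. WT replicate 1 is blue in 1 of 10, and WT replicate 6 and Nod2-/- replicate 6 are each blue in 2 of 10.

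The livers differed as individuals as well as by genotype. The 10 genes took 0.677% to 0.908% of all counts in WT livers (median 0.815%) and 0.619% to 1.06% in Nod2-/- livers (median 0.723%). WT replicate 3, the WT liver with the highest tumor and progenitor marker level, had the lowest value of all 13 livers in 5 of the 10 genes. In that liver, in WT replicate 4 and in Nod2-/- replicate 2, 8 of the 10 values were below the gene mean. Nod2-/- replicate 6 had the highest value in 5 of the 10. Nod2-/- replicate 7, the liver with the highest neutrophil marker level, had the highest Arg1 (33520) and Sds (5376) and the lowest Hal (1291). Nod2-/- replicate 4 had the lowest Otc (4521) beside the third highest Sds (4654). Over all 13 mice, with both genotypes pooled, Otc and Sds had a Pearson r of -0.755 and Ass1 and Slc25a15 one of 0.88, given as descriptions of livers that share a genotype difference and a scaling. By the same measure over all genes tested, the gene most like Otc was Mut (r = 0.987), which encodes methylmalonyl-CoA mutase of branched-chain amino acid and propionate breakdown. The gene most like Cps1 was Cenpp (r = 0.914).

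Periportal enzymes were set against the paralog or counterpart used elsewhere, as log2 ratios within each liver that do not depend on library scaling. The p-values were adjusted over the 4 ratios computed.

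**Figure D4:**
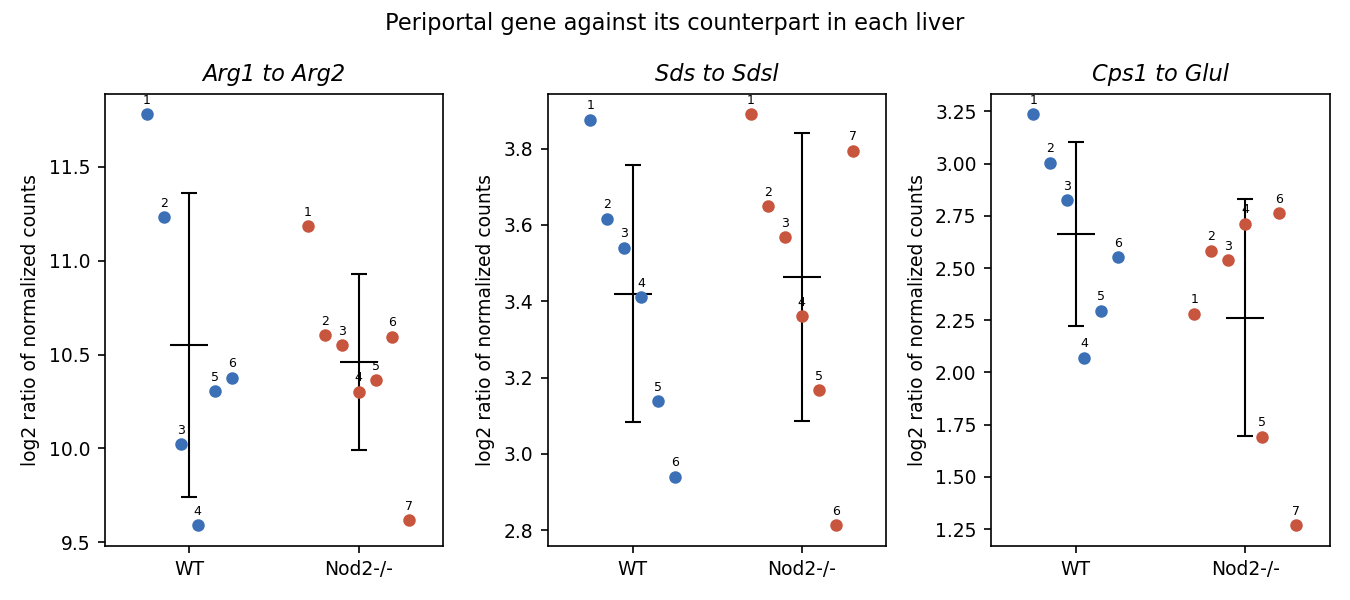
Log2 ratio of normalized counts (with 0.5 added to each) of a periportal gene to its paralog or counterpart in each liver, with the replicate number beside each point and the mean ± SD of 6 WT and 7 Nod2-/- livers in black. The vertical axes do not start at 0. The genotypes overlap in all 3 ratios, and Nod2-/- replicate 7 has the lowest Cps1 to Glul ratio, 1.27.

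Sds and Sdsl, its neighbor and paralog on chromosome 5, had similar fold changes. Sdsl had 123 to 384 normalized counts in WT and 180 to 758 in Nod2-/- livers, with a log2 difference of 0.93 ± 0.35 (SE) and an adjusted p of 0.14. The log2 ratio of Sds to Sdsl differed by 0.04 between genotypes (exact two-sided permutation p = 0.83, adjusted 0.83). The mitochondrial arginase Arg2 had 6 to 43 counts per liver, and the ratio of Arg1 to Arg2 differed by -0.09 (exact permutation p = 0.81, adjusted 0.83). Glul, the pericentral glutamine synthetase, had 7626 to 12380 normalized counts in WT and 6110 to 19760 in Nod2-/- livers. The ratio of Cps1 to Glul differed by -0.40 (exact permutation p = 0.19, adjusted 0.39). It differed by -0.24 without Nod2-/- replicate 7, the liver with the highest Glul.

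Beyond the 10 genes, 7 lists of amino acid, nitrogen and zonation genes held 102 further genes, of which all but 1 passed the filter on low counts. The exception was Slc25a2, a second ornithine carrier, with 0 to 8 counts. In these lists 73 genes had values below 0 and 28 above, with a median log2 fold change of -0.22. At an unadjusted p under 0.05, 36 were lower (35.6%, beside 10.2% of all genes) and 12 were higher (11.9%, beside 12.9%). Past 5% FDR were 1 lower gene, Slc25a13, and 1 higher gene, Aldh1b1, beside 0.509% of all genes lower and 0.65% higher. Without WT replicate 3 the number past 5% FDR was 24, in a fit that called 8.49% of all genes. With DESeq2, which called 8.41% of the genes it tested, the number was 28. It was 0 in each fit that left out 1 of WT replicates 1, 2, 4 and 5 or of Nod2-/- replicates 2, 4 and 7. It was 1 in each fit lacking WT replicate 6 or Nod2-/- replicate 5 or 6. The fits with 0 called 0.3% to 1.09% of all genes, and those with 1 called 0.601% to 1.27%.

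**Figure D5:**
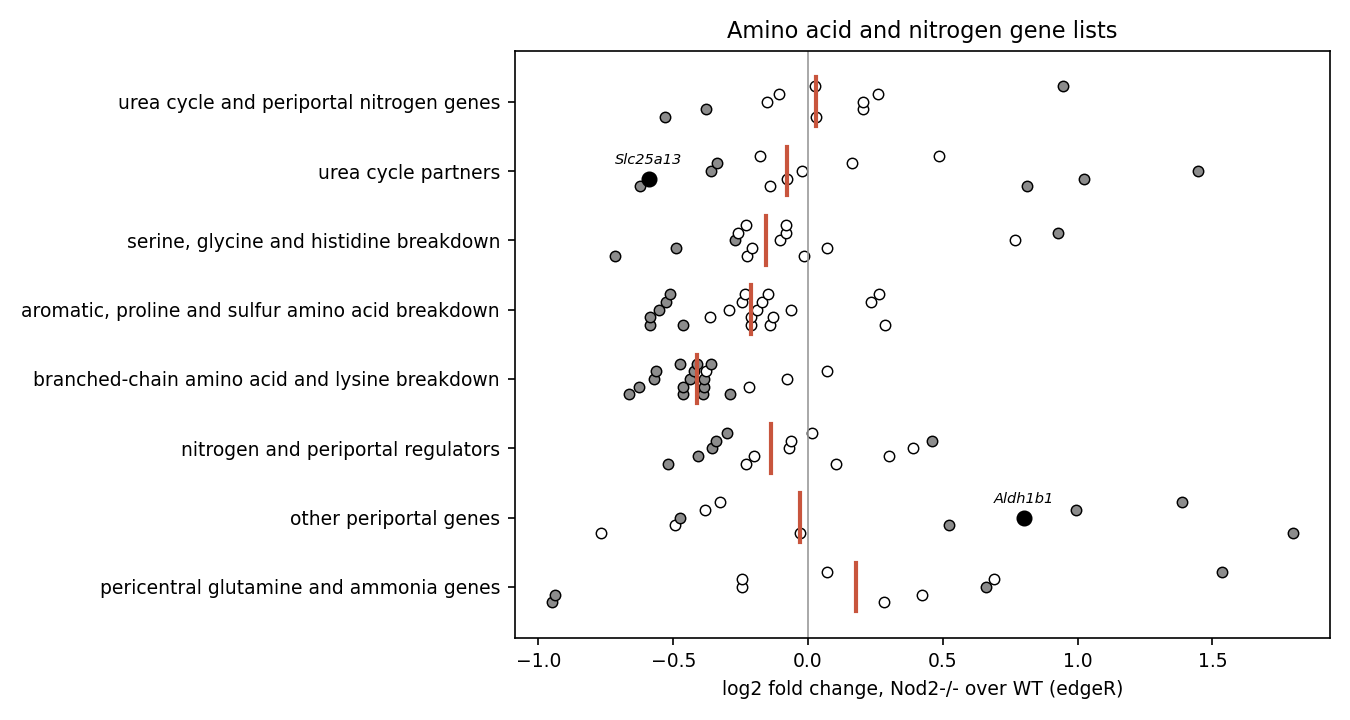
Log2 fold change of Nod2-/- over WT livers from edgeR (horizontal axis) for each gene of the 10-gene set and of the 7 wider lists. Black points passed 5% FDR, gray points had an unadjusted p under 0.05, white points neither, and the red bar is the list median. Branched-chain amino acid and lysine breakdown has the lowest median, -0.41.

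Slc25a13 encodes citrin, the liver aspartate-glutamate carrier that delivers aspartate to argininosuccinate synthetase. It lies on chromosome 6 (6041218 to 6217173, minus strand). Its normalized counts were 4311, 4784 and 6621 in WT livers (lowest, median, highest) and 2716, 3645 and 3899 in Nod2-/- livers. The genotypes did not overlap. Among the 101 wider genes tested, 1 gene, Slc25a13, did not overlap, beside 1.44% of all genes. The log2 difference was -0.59 ± 0.13 (SE), with an edgeR adjusted p of 0.042. The exact permutation p was 0.000583, the smallest that 1716 splits of the mice can give. It was not adjusted for the choice of this gene. The edgeR adjusted p of Slc25a13 stayed under 0.05 in 4 of 13 fits that left out 1 mouse and ranged from 0.019 to 0.11. With hepatocyte marker scaling the difference was -0.80 and the adjusted p 0.072, and with a replicate block they were -0.56 and 0.14.

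Upstream sequence was held for 5 of the 10 genes (Otc, Ass1, Nags, Hal and Slc25a15) in the RefSeq promoter table for GRCm38.p6. Cps1, Asl, Arg1, Gls2 and Sds had no entry. The 250 bases before the start site are shown for Otc, the cycle enzyme with the lowest log2 difference, and for Slc25a13, the carrier past 5% FDR, each in its gene's direction. Capitals mark matches, on either strand, to any of 5 motifs searched, namely the TATA box (TATAAA), the CCAAT box (CCAAT), the core of C/EBP sites (TTGCNNAA), the half-site of the cAMP response element (TGACG) and an HNF4A direct repeat (CAAAGTCCA). Otc is at chrX:10252055-10252304 on the plus strand and Slc25a13 at chr6:6217174-6217423 on the minus strand.
Otc: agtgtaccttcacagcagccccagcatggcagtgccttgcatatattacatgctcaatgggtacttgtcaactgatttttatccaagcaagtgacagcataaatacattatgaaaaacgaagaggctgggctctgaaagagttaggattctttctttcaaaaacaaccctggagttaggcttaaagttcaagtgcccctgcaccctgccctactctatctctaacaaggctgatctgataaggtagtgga
Slc25a13: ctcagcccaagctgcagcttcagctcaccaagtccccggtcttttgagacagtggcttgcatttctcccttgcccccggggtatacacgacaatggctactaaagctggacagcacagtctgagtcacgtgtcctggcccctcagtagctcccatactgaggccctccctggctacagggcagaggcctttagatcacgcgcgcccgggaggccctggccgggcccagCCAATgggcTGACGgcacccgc
The Slc25a13 window held CCAAT and TGACG, letters found in 33.8% and 17.8% of the 32851 windows of the same length. The Otc window held none of the 5 as exact letters. Sites that differ from those letters were not searched, so their absence was not tested. TATAAA was in 12.4%, TTGCNNAA in 9.56% and CAAAGTCCA in 0.384% of all windows. Among the other genes with an entry, Hal held a TATA box, a CCAAT box and a C/EBP core, and the windows of Ass1, Nags and Slc25a15 held none of the letters searched.

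Among the other partners of the cycle, Car5a, the mitochondrial carbonic anhydrase that supplies bicarbonate to carbamoyl phosphate synthetase 1, had 590 to 1176 normalized counts in WT and 274 to 773 in Nod2-/- livers. Its log2 difference was -0.62 (adjusted p 0.14). Got2, the mitochondrial aspartate aminotransferase, had a log2 difference of -0.36 (adjusted p 0.10), and it lies 7.18 Mb from Nod2 on chromosome 8. Got1, the cytosolic enzyme, had 430 to 1492 normalized counts in WT and 708 to 5019 in Nod2-/- livers, a log2 difference of 1.45 with a 95% interval of 0.37 to 2.52 (adjusted p 0.12). Glud1, glutamate dehydrogenase, had a log2 difference of -0.02 (-0.27 to 0.23). Of the 13 partners tested, 1 passed 5% FDR, beside 1.16% of all genes. At an unadjusted p under 0.05, 4 were lower (30.8%, beside 10.2% of all genes) and 3 higher (23.1%, beside 12.9%), and the median was -0.08.

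Branched-chain amino acid and lysine breakdown held 19 genes, of which 18 had values below 0. At an unadjusted p under 0.05, 15 of the 19 were lower and none higher (78.9%, beside 10.2% of all genes), with a median log2 fold change of -0.41. None passed 5% FDR in edgeR, which called 1.16% of all genes. With DESeq2, which called 8.41%, 12 passed, and 11 did without WT replicate 3, in a fit that called 8.49%. Gcdh, glutaryl-CoA dehydrogenase of lysine breakdown, had 7349 to 13450 normalized counts in WT and 4553 to 7926 in Nod2-/- livers, with a log2 difference of -0.66 (adjusted p 0.064). It lies 3.75 Mb from Nod2. Ivd, isovaleryl-CoA dehydrogenase of leucine breakdown, had 2465 to 4244 in WT and 1388 to 2577 in Nod2-/- livers, with a log2 difference of -0.63 (adjusted p 0.066). In both genes WT replicate 3 was the lowest WT liver.

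Aromatic, proline and sulfur amino acid breakdown held 21 genes, of which 6 were lower (28.6%, beside 10.2% of all genes) and none higher (beside 12.9%) at an unadjusted p under 0.05, with a median of -0.21. Hpd, of tyrosine breakdown, had a log2 difference of -0.53 (adjusted p 0.12). Serine, glycine and histidine breakdown held 14 genes, with 3 lower (21.4%, beside 10.2% of all genes), 1 higher, Sdsl (7.14%, beside 12.9%), and a median of -0.16. Dmgdh, dimethylglycine dehydrogenase, had a log2 difference of -0.72 (adjusted p 0.069) and was below the WT median in all 7 Nod2-/- livers.

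The 14 regulators of nitrogen and periportal genes had 5 lower (35.7%, beside 10.2% of all genes) and 1 higher (7.14%, beside 12.9%) at an unadjusted p under 0.05, with a median of -0.14 and none past 5% FDR in edgeR. Hnf4a, a master regulator of hepatocyte genes that binds the promoters of several urea cycle genes, had a log2 difference of -0.34 ± 0.10 (SE, adjusted p 0.081). Creb3l3, a membrane-bound liver factor, had one of -0.41 (adjusted p 0.077). Atf4, which activates amino acid response genes, was the regulator with the higher value, 0.46 (adjusted p 0.089).

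Other periportal genes had values in both directions. Of 11 genes, 5 were higher (45.5%, beside 12.9% of all genes) and 1 lower (9.09%, beside 10.2%) at an unadjusted p under 0.05, with a median of -0.03. Aldh1b1, a mitochondrial aldehyde dehydrogenase, had 942 to 1716 normalized counts in WT and 1474 to 2837 in Nod2-/- livers and rose by 0.80 ± 0.17 (log2, SE; edgeR adjusted p 0.039). Its adjusted p stayed under 0.05 in 5 of 13 fits that left out 1 mouse and ranged from 0.0087 to 0.11. With hepatocyte marker scaling its difference was 0.54 and the adjusted p 0.11, and with a replicate block they were 0.77 and 0.14. Pck1, the gluconeogenic enzyme, had a log2 difference of -0.33 (95% interval -0.78 to 0.13). Of the 10 pericentral glutamine and ammonia genes, 2 were lower (Cyp2e1 at -0.94, adjusted p 0.078, and Cyp1a2 at -0.95, adjusted p 0.19) and 2 higher (Slc1a4 at 1.54, adjusted p 0.066, and Axin2 at 0.66, adjusted p 0.16), with a median of 0.18. These are 20% in each direction, beside 10.2% of all genes lower and 12.9% higher.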

How the data were processed

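Liver RNA of 6 WT and 7 Nod2-/- mice was sequenced from stranded mRNA libraries as paired reads of 43 bases. Reads were trimmed by the authors (Trimmomatic 0.33) and aligned to GRCm38 (TopHat2 2.1.1), and raw counts per gene were deposited (53465 genes and 1 empty row). The counting program and its strand setting are not given in the sources used here. Ensembl identifiers were mapped to symbols with GENCODE M21. Groups came from the genotype label. All genes kept by filterByExpr (13545, 99.9% of counts) were tested together with the edgeR 4.0.16 quasi-likelihood test after TMM scaling, with Benjamini-Hochberg adjustment. For normalized counts, each library was brought to the mean effective size of all libraries, and RPKM were computed from them with the summed exon length. Ratios of paralogs were tested with a two-sided exact permutation test over the mice, with a pseudocount of 0.5. Standard errors, intervals and p-values cover the spread between individual mice. Alternatives were DESeq2 1.42.0, limma 3.58.1 (voomWithQualityWeights), 1 surrogate variable (sva 3.50.0), other scalings and filters, a replicate block, and leaving out each mouse. The scripts' tests were tested on simulated data with known changes. At 5% FDR, unchanged genes made up 5.08% of the calls of edgeR, 15.9% of those of DESeq2 and 4.02% of those of voomWithQualityWeights. DESeq2 thus exceeded the 5% level in that simulation. The counts were drawn once, from edgeR's own dispersion estimates, so the simulation cannot rank the tools on the real data. Of 88 genes changed by a log2 fold of 1, edgeR recovered 69.3%, DESeq2 71.6% and voomWithQualityWeights 68.2%. Smaller changes were not simulated. The 10 genes, the lists and the tests were chosen with earlier results of these data known. The rule for named genes took the 10 genes, their paralogs, wider genes with an unadjusted p under 0.05 or among the 3 most abundant of a list, and the gene most like each of the 10. Only some of the genes it took are printed, chosen after their values were seen, and 1 ratio is not reported here. All 36 pairs of livers within a genotype differed by more than sampling noise.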

Additional observations from a re-analysis of the deposited data

Results flagged for a closer look

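Hal in the Nod2-/- livers was 1291 normalized counts in replicate 7, while the other 6 livers had 2102 to 2694. The gap to the nearest liver was 0.578 of the whole range, above Dixon's 95% limit for 7 values. That liver also had the highest summed neutrophil marker level, 938 CPM, and the part of those cells was not tested. Aldh1b1 in the WT livers was 1716 normalized counts in replicate 3, while the other 5 had 942 to 1231. The gap was 0.627 of the range, above the same limit for 6 values. That liver had the highest tumor and progenitor marker level among WT livers, 537 CPM, and their part was not tested. In all, 34 groups of values were examined and 2 were marked, where chance marks about 1 in 20.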

How the results depend on the processing

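With edgeR, 0 of the 10 genes passed 5% FDR. The number was 3 with DESeq2, 1 with voomWithQualityWeights (Sds), 1 with 1 surrogate variable (Sds) and 0 to 1 without single mice, the 1 being Otc without WT replicate 3. Of the 102 wider genes, 2 passed 5% FDR. The number was 28 with DESeq2, 16 with voomWithQualityWeights, 7 with 1 surrogate variable, 0 with hepatocyte marker scaling and 0 to 24 without single mice. Over all genes, 157 passed in edgeR, against 1209 with DESeq2, 843 with voomWithQualityWeights, 697 with 1 surrogate variable, 60 with hepatocyte marker scaling, 32 with the replicate block and 41 to 1156 without single mice. The cause of these differences was not tested.

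Hepatocyte marker scaling moved the median of all genes by -0.23, and the log2 differences were then -0.17 for Ass1, -0.0018 for Arg1, -0.037 for Nags, -0.0075 for Gls2 and -0.19 for Slc25a15. Subtracting that shift returns values near those of the main fit, so it does not test the signs. With 1 surrogate variable Asl was at 0.043. Without single mice Ass1 ranged from -0.13 to 0.12, Slc25a15 from -0.050 to 0.10, the Arg1 to Arg2 ratio from -0.28 to 0.15 and the Sds to Sdsl ratio from -0.053 to 0.15. The Cps1 to Glul ratio ranged from -0.52 to -0.24.

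The replicate numbers in the labels did not pair the mice: the correlations of same-numbered deviations ran from -0.302 to 0.304, with 1 of 6 over 0.1. A fit with the replicate block on the first 6 mice of each genotype called 0 of the 10 genes and 0 of the wider genes, and put Ass1 at -0.023. In paired differences with the replicate block the Arg1 to Arg2 ratio was 0.048, the Sds to Sdsl ratio -0.012 and the Cps1 to Glul ratio -0.24. With 6 and 7 mice, the intervals of Ass1, Asl, Arg1, Nags, Gls2 and Hal include a change as large as that of Cps1 in at least 1 direction, and that of Slc25a15 does not.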
